A study of Mus musculus with 24 samples.

Results

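The 50 genes described here encode ribosome biogenesis factors, the proteins that make ribosomal RNA, modify it and fold it into the small and large ribosomal subunits. They were picked by name. A gene belonged if its mouse Ensembl identifier in the deposited expression table carries 1 of 50 listed symbols in the GENCODE annotation of GRCm38. The symbols were listed with earlier results of these data known. All 50 symbols were found, among 46981 identifiers in the table. By role, 6 are nucleolar proteins, 2 are RNA polymerase I subunits, 3 belong to box C/D and 4 to box H/ACA small nucleolar ribonucleoproteins, 19 serve the small subunit and 16 the large subunit. All 50 passed the filter on low values, at least 1 RPM (reads scaled to a common total of 1000000 per library) in at least 3 libraries, in both cohorts.

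RNA of mouse CD4 T cells was sequenced in 24 libraries, 8 groups of 3. In the first cohort, activated and resting cells came from CD4-Cre Acly fl/fl mice (KO) and from WT mice. Acly encodes ATP citrate lyase, which makes cytosolic acetyl-CoA from citrate, and CD4-Cre acts in developing T cells. In the second cohort, activated and resting cells came from Pdha1 fl/fl CD4CreERT2 mice (KO) and again from WT mice. Pdha1 encodes a subunit of pyruvate dehydrogenase, which makes mitochondrial acetyl-CoA, and CreERT2 is a Cre that acts only after tamoxifen. The labels give no schedule for that induction. Activated cells received CD3/CD28 stimulation for 24 h and resting cells received nothing. All were kept in RPMI with 15% serum and 2 mM glutamine. The labels do not say whether the 3 libraries of a group come from separate animals, nor whether the WT mice carried a Cre. The p-values therefore reflect library-to-library spread, which could be technical.

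Ribosome production begins in the nucleolus, where RNA polymerase I transcribes the long precursor of ribosomal RNA. Small nucleolar RNAs, carried by the box C/D and box H/ACA proteins, guide its methylation and pseudouridylation, and large assemblies of helper proteins then cut and fold it into the 2 subunits. T cells leaving rest enlarge and multiply, and raise their capacity to make ribosomes as they do so, with the transcription factor Myc among the known activators of these genes through E-box sequences.

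Because most members rose with activation, their promoters were read for 3 motifs on both strands. RefSeq promoter windows on GRCm38.p6, from 250 bases before to 50 bases after the first transcribed base, were matched for 45 of the 50 genes. Npm1, Fbl, Rrp12, Bop1 and Rrs1 had no window. The canonical E-box CACGTG was present in 9 of the 45 genes, or 20%, against 8.09% of the 27025 genes with a window. The non-canonical form CACGCG was present in 15, or 33.3%, against 10.5% of all genes. The ETS-type motif CCGGAAG was present in 14, or 31.1%, against 9.93% of all genes. Among protein-coding genes the 3 shares were 9.87%, 15.7% and 14.8%. A match describes these letters only and shows no binding.

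The 9 canonical E-boxes are shown with up to 12 bases on each side, 5′ to 3′ on the gene's strand, with the motif in capitals. The last 2 lines show the 250 bases before the start of Gar1, among the genes with the largest activation change, and of Wdr12, whose WT change was not called. The capitals in Gar1 mark the ETS-type motif on the opposite strand. None of the 3 motifs is in the Wdr12 windows. Gar1 and Wdr12 are picked examples, and other members go the other way. Nip7 and Noc3l, with small activation changes, carry motifs, while Ncl and Nop56, with large ones, carry none of the 3. A link between motif and change was not tested.
Imp4, chr1:34439696-34439725, plus strand: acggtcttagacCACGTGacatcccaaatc
Nop2, chr6:125131811-125131840, plus strand: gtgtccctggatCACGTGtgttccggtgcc
Ltv1, chr10:13193092-13193121, minus strand: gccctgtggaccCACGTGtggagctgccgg
Utp20, chr10:88826765-88826789, minus strand: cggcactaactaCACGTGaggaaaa
Pes1, chr11:3963965-3963994, plus strand: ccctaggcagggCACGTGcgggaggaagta
Mybbp1a, chr11:72441355-72441376, plus strand: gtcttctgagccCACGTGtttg
Tsr1, chr11:74898092-74898121, plus strand: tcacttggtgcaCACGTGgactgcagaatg
Utp18, chr11:93885769-93885798, minus strand: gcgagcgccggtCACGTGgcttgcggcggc
Wdr43, chr17:71616220-71616249, plus strand: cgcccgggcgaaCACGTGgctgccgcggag
Gar1, chr3:129831397-129831646, minus strand: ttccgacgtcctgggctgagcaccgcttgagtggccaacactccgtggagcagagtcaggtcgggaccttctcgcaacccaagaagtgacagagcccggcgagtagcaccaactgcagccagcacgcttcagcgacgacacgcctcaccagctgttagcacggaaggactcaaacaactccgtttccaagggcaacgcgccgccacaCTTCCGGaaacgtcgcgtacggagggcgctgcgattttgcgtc
Wdr12, chr1:60098501-60098750, minus strand: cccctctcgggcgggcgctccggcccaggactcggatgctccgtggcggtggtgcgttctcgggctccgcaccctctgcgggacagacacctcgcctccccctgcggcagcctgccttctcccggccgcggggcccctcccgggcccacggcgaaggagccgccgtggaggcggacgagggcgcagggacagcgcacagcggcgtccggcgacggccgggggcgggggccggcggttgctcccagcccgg

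In the annotation, 7 members carry 21 small nucleolar RNA genes on their own strand within their span. Nop56 hosts 5, Nop58 hosts 4, and Ncl, Gnl3 and Wdr43 host 3 each, Tsr1 hosts 2 and Dkc1 hosts 1. Leaving out genes of small RNAs and transcripts that the annotation holds to be unproven, no member overlaps another gene on its own strand, and 20 overlap a gene on the opposite strand. Whether the authors' counting used strand is not given in the sources used here, so reads of those 20 members and of their partners may not be told apart.

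Recovered counts ranged from 388902 to 1087675 per library, and 1 count was worth 0.677 to 2.28 RPM, so a count of 0 allowed up to 2.03 to 6.83 RPM (3 counts, counting error only). Among activated cells of the Acly cohort the deleted gene followed the labels: Acly had 11.3, 10.6 and 15.0 RPM in KO libraries, against 104, 111 and 109 RPM in WT libraries of its cohort. Pdha1 had 30.4, 27.4 and 20 RPM in activated KO libraries of the second cohort, against 84.7, 40.8 and 5.35 RPM in activated WT libraries, so that the third WT library lay below every KO library. In resting cells Acly had 8, 1.06 and 5.04 RPM in KO libraries, against 5.80, 9.87 and 8.94 RPM in WT libraries of its cohort. Pdha1 had 7.33, 0 and 25.9 RPM in resting KO libraries, against 6.78, 3.14 and 6.01 RPM in resting WT libraries. The genotypes overlapped for both genes, so the genotype labels of resting libraries could not be checked this way. In the Pdha1 cohort, 2 libraries stood apart from their groups: the library labelled KO resting 3 and the library labelled WT activated 3. T cell markers were present in all libraries, at a summed 130 to 1574 RPM for 6 genes. Erythroid and platelet markers summed to 168 to 16191 RPM in the Pdha1 cohort and to 11.5 to 617 RPM in the Acly cohort. Odorant and pheromone receptor genes, 1891 in number and not known for a role in T cells, gave a summed 30239 to 41179 RPM in activated and 95846 to 110184 RPM in resting libraries of the Acly cohort. The 6 T cell markers summed to 961 to 1574 RPM in activated and 301 to 556 RPM in resting libraries there. Both moved with activation, and their part in the results on activation was not tested. In bulk RNA, fewer cells of a type and less RNA per cell cannot be told apart.

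**Figure D1:**
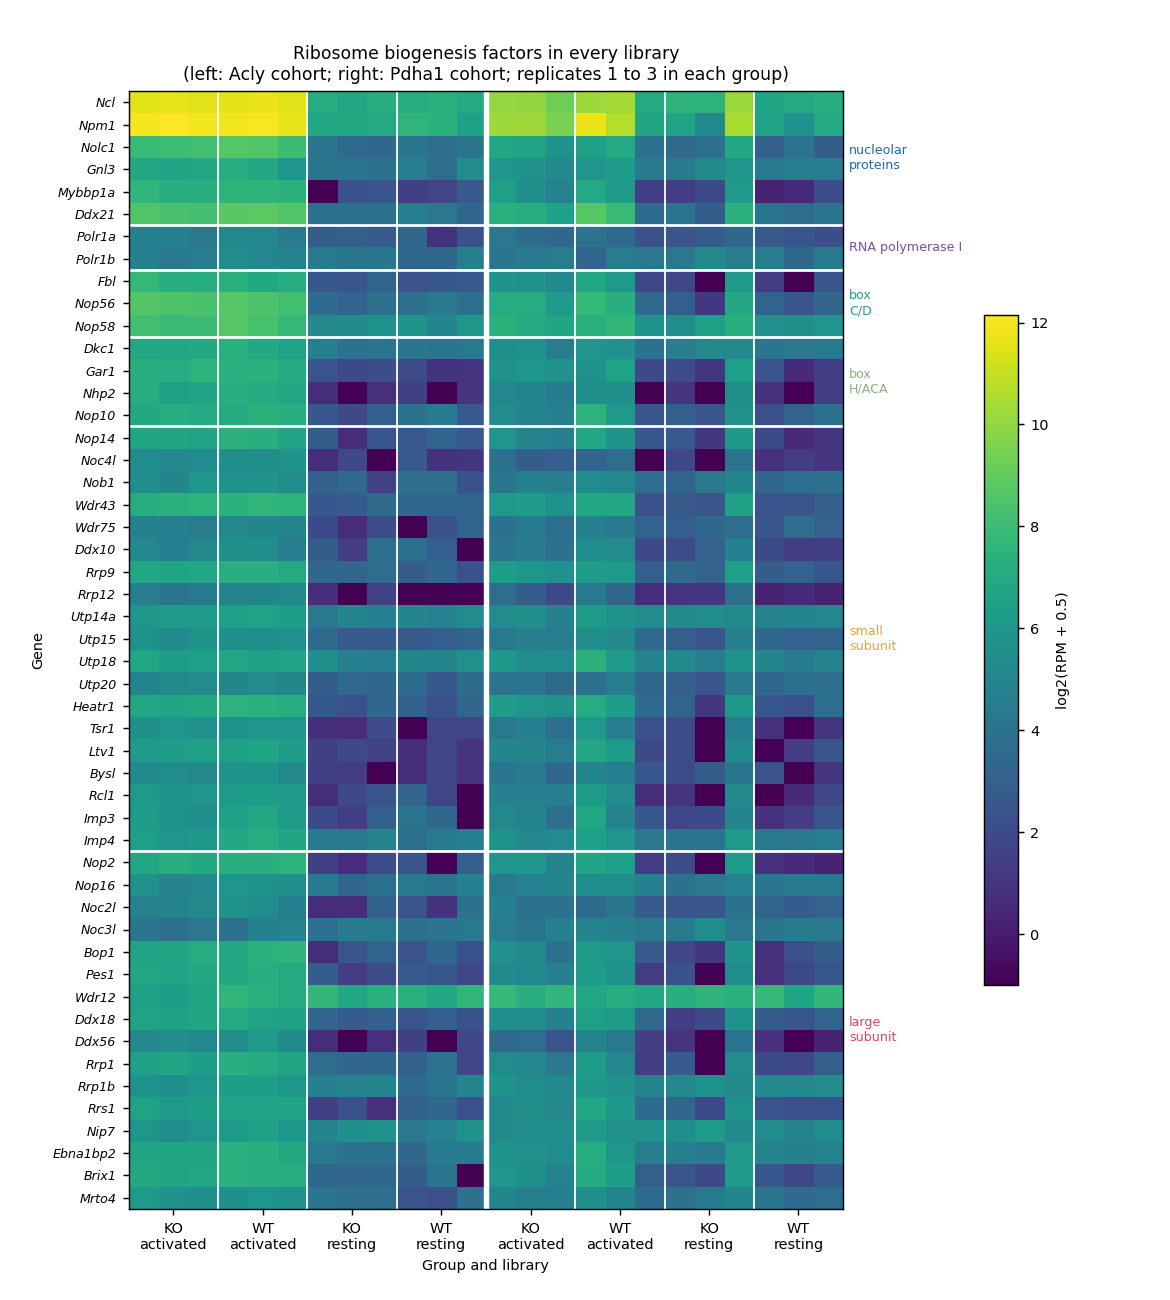
Level of each of the 50 genes (rows, by role) in each of the 24 libraries (columns, 3 per group), as log2(RPM + 0.5). Activated libraries of the Acly cohort are brighter than resting ones for nearly all genes. In the Pdha1 cohort the third KO resting library is bright and the third WT activated library is dark. Wdr12 and Noc3l differ little between states.

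Activation raised nearly the whole set in the Acly cohort. In KO cells, 45 of the 50 genes rose and 1, Wdr12, fell. In WT cells, 48 rose and none fell. The median log2 change of the 50 genes was 3.69 in KO and 4.12 in WT cells, against -0.67 and -0.61 over all genes tested. Calls are those of limma on log2(RPM + 0.5), at a Benjamini-Hochberg adjusted p under 0.05 over 31311 genes. Of all genes tested, 20.7% were called higher and 26.7% lower in activated KO cells. In activated WT cells 21.4% were called higher, and 7447 of the 31311 genes lower. All 3 activated libraries exceeded all 3 resting libraries for 46 members in KO cells (22.6% of all genes) and for 48 members in WT cells (23.1% of all genes). With edgeR on recovered counts, 48 members in KO cells (25.5% of all genes) and all 50 in WT cells (25.6% of all genes) were called higher. Both contrasts of activation and both of genotype share libraries, so their values are given side by side only.

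**Figure D2:**
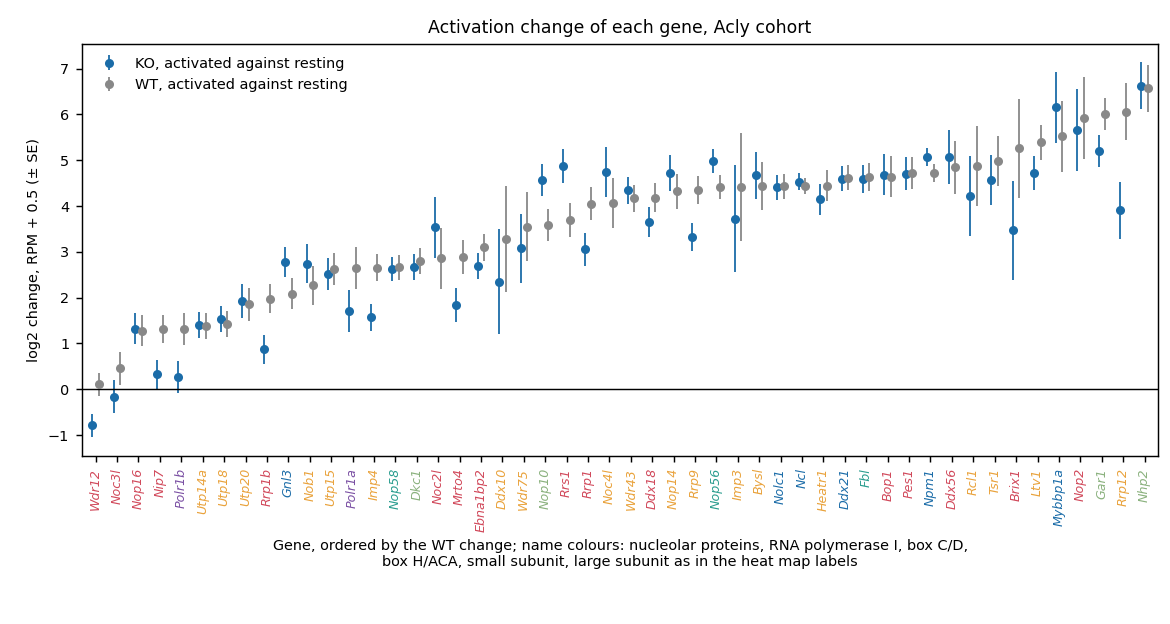
Log2 change with activation (± SE of the fit) of each gene in KO cells (blue) and WT cells (grey) of the Acly cohort, ordered by the WT change. Most changes lie between 1 and 7 in both genotypes. Wdr12, Noc3l, Nip7 and Polr1b are at the low end, and Nhp2 is at the high end in both.

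The summed level of the 50 genes was 12207, 12430 and 11749 RPM in activated KO libraries, against 966, 813 and 1008 RPM in resting KO libraries. It was 13119, 13718 and 11399 RPM in activated WT libraries, against 1016, 951 and 1022 RPM in resting WT libraries. Activated and resting libraries did not overlap. The third activated WT library was the lowest of the activated libraries and lay below all 3 activated KO libraries. That order depended on Ncl and Npm1, which made up much of the sum. Leaving out these 2 genes, the sums were 5005, 4551 and 4770 RPM in activated KO libraries. They were 6200, 6058 and 5036 RPM in activated WT libraries, each above all 3 KO libraries.

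**Figure D3:**
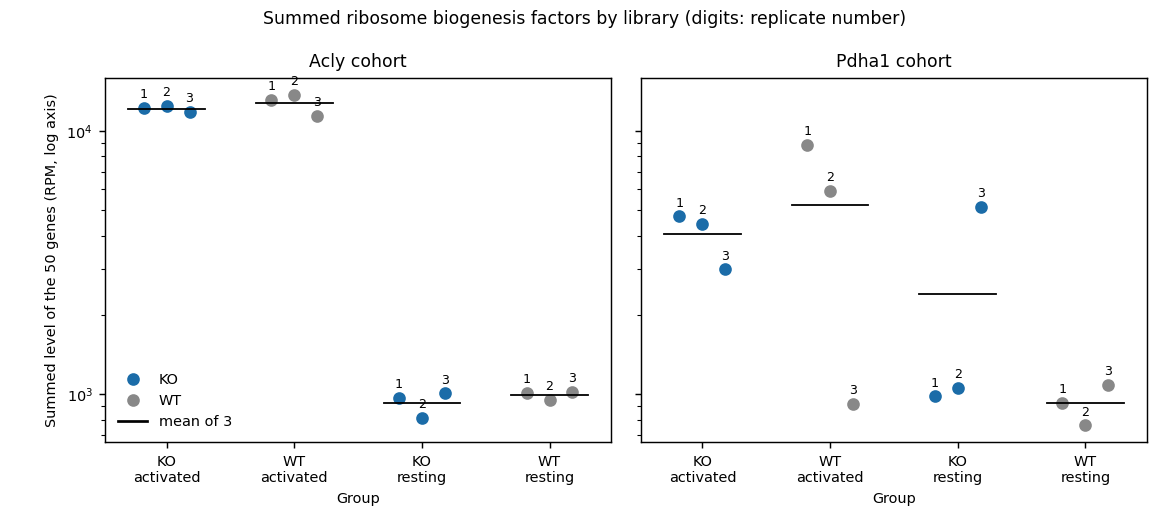
Summed RPM of the 50 genes in each library on a log axis, with the mean of each group as a line and the replicate number above each point, KO in blue and WT in grey. In the Acly cohort activated libraries lie between 11399 and 13718 and resting libraries between 813 and 1022. In the Pdha1 cohort KO resting 3 lies at 5143 and WT activated 3 at 923.

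All 6 nucleolar proteins rose in both genotypes, with median log2 changes of 4.56 in KO and 4.53 in WT cells. Npm1, nucleophosmin, a histone and ribosomal protein chaperone of the nucleolus, had 4082, 4560 and 3940 RPM in activated KO libraries, against 116, 125 and 131 RPM in resting KO libraries. Npm1 had 3777, 4219 and 3411 RPM in activated WT libraries, against 193, 172 and 88.4 RPM in resting WT libraries. The states were far apart in both genotypes, with log2 changes of 5.07 ± 0.20 (SE, adjusted p = 1.12e-22) in KO and 4.72 ± 0.20 (adjusted p = 1.09e-21) in WT cells. Ncl, nucleolin, which binds the precursor of ribosomal RNA, had 3120, 3319 and 3038 RPM in activated KO libraries, against 141, 113 and 157 RPM in resting KO libraries. Ncl had 3142, 3441 and 2952 RPM in activated WT libraries, against 141, 166 and 132 RPM in resting WT libraries, and rose by 4.53 ± 0.18 in KO and 4.44 ± 0.18 in WT cells. These 2 genes were near the upper end of the counting scale: the highest library of Npm1 held 3002 of 4096 possible identifiers, which the authors' correction for collisions turned into a count of 5407, so their highest values rest most on that correction. Ddx21, a helicase that links RNA polymerase I transcription to processing, had 388, 337 and 315 RPM in activated KO libraries, against 13.7, 13.9 and 13.9 RPM in resting KO libraries. Ddx21 had 443, 462 and 390 RPM in activated WT libraries, against 25.6, 18.3 and 10.4 RPM in resting WT libraries. The other 3, Nolc1, Gnl3 and Mybbp1a, had log2 changes of 4.41, 2.78 and 6.16 in KO cells and of 4.43, 2.09 and 5.52 in WT cells.

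The 2 subunits of RNA polymerase I moved less. Polr1a, its largest subunit, had 27.3, 26.5 and 18.2 RPM in activated KO libraries, against 6.86, 7.45 and 6.30 RPM in resting KO libraries. Polr1a had 35.0, 34.1 and 20.3 RPM in activated WT libraries, against 10.4, 1.41 and 4.47 RPM in resting WT libraries, and rose by 1.71 ± 0.46 in KO and 2.65 ± 0.46 in WT cells. Polr1b, the second-largest subunit, had 26.5, 18.6 and 22.5 RPM in activated KO libraries, against 20.6, 17.1 and 17.7 RPM in resting KO libraries. The KO libraries overlapped, and the log2 change of Polr1b was 0.27 ± 0.35 (adjusted p = 0.536). Polr1b had 40.1, 34.1 and 30.0 RPM in activated WT libraries, against 10.4, 9.87 and 23.9 RPM in resting WT libraries, and rose by 1.32 ± 0.35 (adjusted p = 0.00242). Relative to protein-coding genes the KO change of Polr1b was -0.25 and the WT change was no longer called. A call in 1 genotype alone is no difference between them: the interaction of Polr1b was -1.05 ± 0.50, with an adjusted p of 1.

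The box C/D and box H/ACA proteins rose in full, 7 of 7 in each genotype. Fbl, fibrillarin, the methyltransferase of the box C/D particles, had 214, 159 and 139 RPM in activated KO libraries, against 5.71, 5.32 and 8.83 RPM in resting KO libraries. Fbl had 163, 129 and 146 RPM in activated WT libraries, against 4.64, 5.64 and 5.96 RPM in resting WT libraries, a log2 change of 4.59 ± 0.31 in KO and of 4.63 ± 0.31 in WT cells. Nop56, a core box C/D protein, had 394, 370 and 336 RPM in activated KO libraries, against 11.4, 8.52 and 13.9 RPM in resting KO libraries. Nop56 had 407, 352 and 291 RPM in activated WT libraries, against 13.9, 21.2 and 13.4 RPM in resting WT libraries. Its partner Nop58 had 290, 237 and 255 RPM in activated KO libraries, against 35.5, 37.4 and 54.5 RPM in resting KO libraries. Nop58 had 413, 317 and 216 RPM in activated WT libraries, against 54.8, 32.5 and 61.3 RPM in resting WT libraries. Its log2 changes, 2.63 in KO and 2.66 in WT cells, were below those of Nop56, 4.99 and 4.41.

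Of the box H/ACA proteins, Gar1 had 155, 141 and 180 RPM in activated KO libraries, against 4.57, 3.19 and 3.78 RPM in resting KO libraries. Gar1 had 165, 177 and 136 RPM in activated WT libraries, against 3.48, 1.41 and 1.49 RPM in resting WT libraries. Values in the resting KO libraries and in resting WT 1 were at or near the floor of 3 counts. Those of resting WT 2 and 3 were under their floors of 4.23 and 4.47 RPM. The log2 changes of Gar1 were 5.20 ± 0.34 in KO and 6.01 ± 0.34 in WT cells. The WT change rests in part on values under the floor. Nop10 had 125, 147 and 132 RPM in activated KO libraries, against 5.71, 3.19 and 7.57 RPM in resting KO libraries. Nop10 had 134, 175 and 157 RPM in activated WT libraries, against 15.1, 21.2 and 5.96 RPM in resting WT libraries. Dkc1, dyskerin, the pseudouridine synthase of these particles, had 119, 116 and 125 RPM in activated KO libraries, against 25.2, 14.9 and 16.4 RPM in resting KO libraries. Dkc1 had 164, 128 and 97.2 RPM in activated WT libraries, against 17.4, 16.9 and 19.4 RPM in resting WT libraries. It moved least of the 4, by 2.67 in KO and 2.79 in WT cells, and Nhp2 moved most, by 6.62 ± 0.51 and 6.57 ± 0.51. Nhp2 had 147, 90.1 and 103 RPM in activated KO libraries, against 1.14, 0 and 1.26 RPM in resting KO libraries, so its fold rests on values under the floor.

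Of the 19 small-subunit factors, 18 rose in KO and 19 in WT cells, with median log2 changes of 3.73 and 4.17. The exception in KO cells was Ddx10, a helicase of the processome, with 2.35 ± 1.16, although its activated and resting libraries did not overlap. Wdr43, a subunit of the early processome, had 140, 167 and 180 RPM in activated KO libraries, against 5.71, 6.39 and 11.4 RPM in resting KO libraries. Wdr43 had 168, 202 and 183 RPM in activated WT libraries, against 10.4, 9.87 and 8.94 RPM in resting WT libraries. Heatr1, another early factor, had 120, 111 and 128 RPM in activated KO libraries, against 5.71, 4.26 and 10.1 RPM in resting KO libraries. Heatr1 had 181, 173 and 145 RPM in activated WT libraries, against 8.12, 4.23 and 10.4 RPM in resting WT libraries. Both had separate states in both genotypes, and their log2 changes lay between 4.14 and 4.44. Utp18 moved less: it had 113, 79.3 and 85.2 RPM in activated KO libraries, against 45.9, 26.7 and 25.3 RPM in resting KO libraries. Utp18 had 116, 92.8 and 97.2 RPM in activated WT libraries, against 32.6, 32.5 and 49.3 RPM in resting WT libraries, with log2 changes of 1.53 ± 0.28 in KO and 1.43 ± 0.28 in WT cells.

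Rrp12, known in yeast for the export of both subunits, was the only member with no count in a whole group. It had 24.2, 15.9 and 20.4 RPM in activated KO libraries, against 1.14, 0 and 2.52 RPM in resting KO libraries. It had 29.0, 32.5 and 37.2 RPM in activated WT libraries and 0 RPM in each resting WT library. Against the mean floor of 3 counts per library, 4.06 RPM, it was at least 8.11-fold higher in activated WT cells. With Rrp12 at that bound, 3.02 on the log2 scale, the WT median was 4.06 over the 50 genes and 4.07 over the small-subunit factors. The 9 members with a canonical E-box had WT log2 changes between 1.43 for Utp18 and 5.92 for Nop2, a range that spans much of the set.

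Of the 16 large-subunit factors, 13 rose and 1 fell in KO cells, and 14 rose in WT cells, with median log2 changes of 3.26 and 3.40. Nop2, a methyltransferase of large-subunit RNA, had 119, 157 and 127 RPM in activated KO libraries, against 2.28, 1.06 and 3.78 RPM in resting KO libraries. Nop2 had 159, 158 and 179 RPM in activated WT libraries, against 4.64, 0 and 7.45 RPM in resting WT libraries. It rose by 5.66 ± 0.89 in KO and 5.92 ± 0.89 in WT cells. Most of its resting values were at, near or under the floor of 3 counts. Ebna1bp2, which helps assemble the early large subunit, had 108, 106 and 111 RPM in activated KO libraries, against 19.5, 14.9 and 15.1 RPM in resting KO libraries. Ebna1bp2 had 165, 158 and 122 RPM in activated WT libraries, against 10.4, 21.2 and 20.9 RPM in resting WT libraries. The states of both genes were separate in both genotypes. Bop1 and Pes1, which bind each other and Wdr12 in the PeBoW complex, rose by 4.68 and 4.71 in KO cells and by 4.64 and 4.72 in WT cells.

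Wdr12, the third PeBoW subunit, did not follow them. Wdr12 had 87.3, 80.2 and 106 RPM in activated KO libraries, against 207, 113 and 164 RPM in resting KO libraries. Its states did not overlap, and its level fell by 0.79 ± 0.25 in log2 units (adjusted p = 0.00927). Wdr12 had 201, 163 and 136 RPM in activated WT libraries, against 160, 114 and 194 RPM in resting WT libraries, which overlapped, a log2 change of 0.11 ± 0.25 (adjusted p = 0.731). The fall in KO cells was not called under a TMM-style scaling, at -0.29, or with edgeR, at -0.26, nor without KO resting 1, at -0.59. In WT cells edgeR called Wdr12 higher, by 0.64 (adjusted p = 0.0289). Wdr12 overlaps Carf on the opposite strand, and Carf fell with activation by 1.66 ± 0.33 in KO and by 1.68 ± 0.33 in WT cells.

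Noc3l, named here after its values were seen, and Nip7 also had small changes. Noc3l, a factor for maturation and transport of the pre-large subunit, had 17.4, 13.2 and 18.2 RPM in activated KO libraries, against 13.7, 20.3 and 21.5 RPM in resting KO libraries. Noc3l had 15.0, 26.9 and 30.0 RPM in activated WT libraries, against 15.1, 15.5 and 19.4 RPM in resting WT libraries. The states overlapped in both genotypes, with log2 changes of -0.16 ± 0.36 in KO and 0.46 ± 0.36 in WT cells, and edgeR called the WT change, at 1.06. Nip7, counted here among the large-subunit factors, had 62.5, 43.4 and 60.3 RPM in activated KO libraries. It had 32.1, 48.1 and 53.2 RPM in resting KO libraries. Nip7 had 72.4, 92 and 63.9 RPM in activated WT libraries, against 18.6, 28.2 and 50.8 RPM in resting WT libraries. The KO states overlapped, at 0.33 ± 0.31, and the WT states did not, at 1.32 ± 0.31 (adjusted p = 0.000656).

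**Figure D4:**
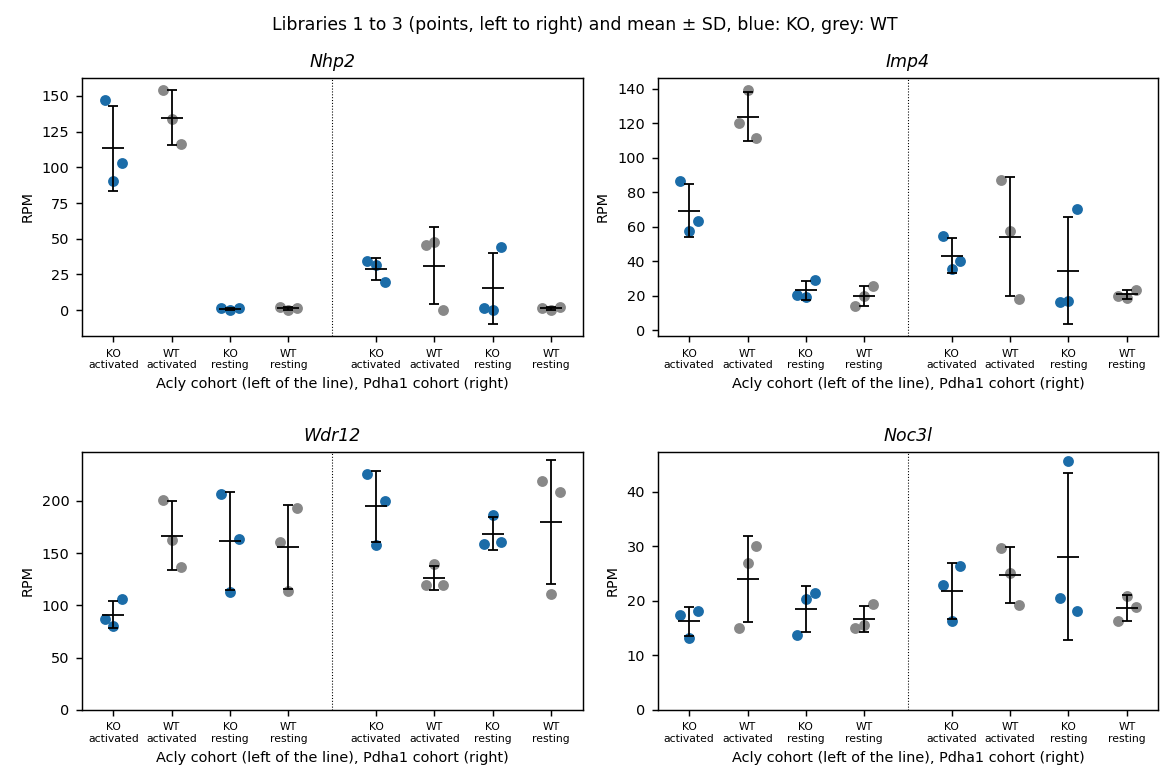
RPM of Nhp2, Imp4, Wdr12 and Noc3l in every library, with mean ± SD (n = 3), KO in blue and WT in grey, the Acly cohort left of the dotted line. Nhp2 is near 0 in resting and 90.1 to 154 in activated libraries of the Acly cohort. Imp4 and Wdr12 in activated Acly KO cells lie below activated WT cells, and Noc3l overlaps between all groups of the Acly cohort.

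Other genes of the same pathway, from lists of further factors also chosen with earlier results known, moved less with activation. Of 71 other assembly factors, 54 rose and 2 fell in KO cells, and 55 rose and 2 fell in WT cells, with a median log2 change of 2.09 in each. Of 18 further subunits and factors of RNA polymerase I, 15 rose in each genotype, with medians of 1.65 in KO and 2.04 in WT cells. Of 15 genes of the RNA exosome and of rRNA trimming, 14 rose in KO and 15 in WT cells, with medians of 2.04 and 2.15. Tcof1, treacle, which supports RNA polymerase I, rose by 3.52 in KO and 3.40 in WT cells. Polr1d, shared by RNA polymerases I and III, rose by 4.17 and 3.88. Myc itself had 79.5, 41.7 and 64.6 RPM in activated KO libraries, against 4.57, 2.13 and 5.04 RPM in resting KO libraries. It had 55.2, 50.9 and 46.9 RPM in activated WT libraries, against 3.48, 1.41 and 1.49 RPM in resting WT libraries.

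Between genotypes, no member differed past the threshold in activated cells of the Acly cohort. By their fitted change, 44 of the 50 were lower in KO than in WT cells. The share of lower or higher fitted changes over all genes was not counted, here or below. The genes were measured in the same libraries, so they are not separate observations. The median log2 change was -0.29 for the 50 genes and -0.05 for all genes tested. Limma called 0 members and 0.00639% of all genes, edgeR and DESeq2 called 0 members, and 2 members, Imp4 and Wdr12, had an unadjusted p under 0.05 (3.47% of all genes). All 3 KO libraries lay below all 3 WT libraries for 19 members (7.38% of all genes), and above them for 0 members (3.56% of all genes). The median stayed negative under the other scalings tried, at -0.23 with the TMM-style scaling, -0.28 relative to protein-coding genes, -0.20 with edgeR and -0.22 with DESeq2.

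**Figure D5:**
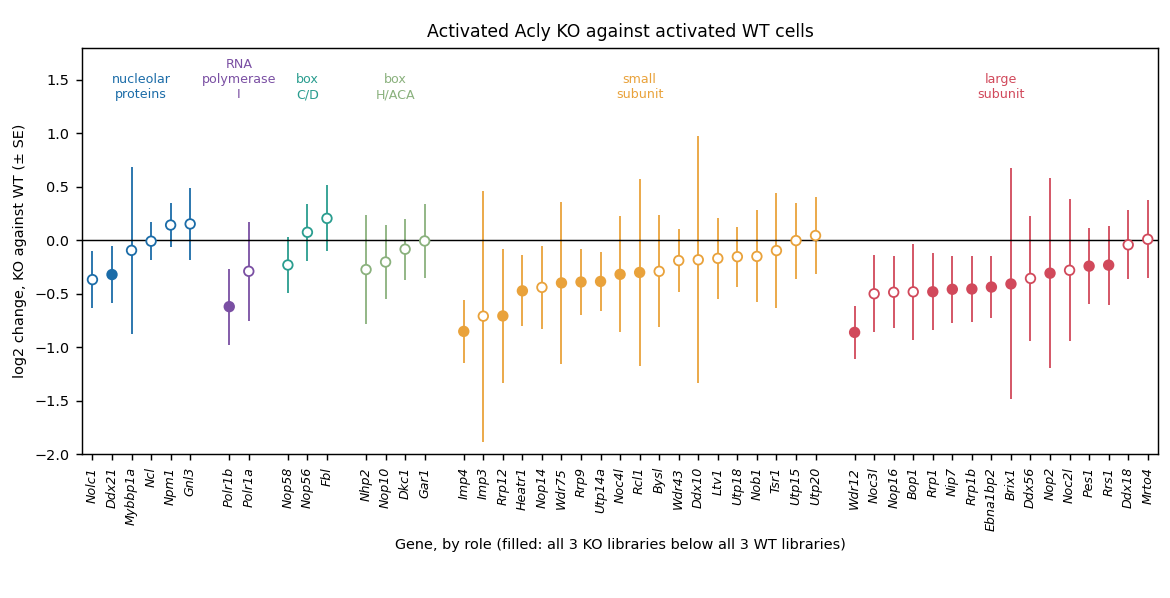
Log2 change (± SE) of each gene in activated Acly KO against activated WT cells, by role. Filled points mark the 19 genes whose KO libraries all lie below all WT libraries. Small-subunit and large-subunit factors lie mostly under 0, with Wdr12 and Imp4 lowest. Both RNA polymerase I subunits lie under 0, and nucleolar and box C/D proteins lie around 0.

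The low values lay in subunit assembly more than in the nucleolar and snoRNP proteins, without a test of that contrast. The 19 were 9 of 16 large-subunit factors, 8 of 19 small-subunit factors, 1 of 6 nucleolar proteins, 1 of 2 RNA polymerase I subunits and none of the 7 box C/D and H/ACA proteins. The median log2 change was -0.42 for large-subunit and -0.30 for small-subunit factors, and -0.45 for the 2 RNA polymerase I subunits. It was -0.05 for nucleolar proteins, 0.08 for box C/D and -0.14 for box H/ACA proteins. The summed large-subunit factors had 1267, 1185 and 1283 RPM in activated KO libraries, against 1695, 1699 and 1511 RPM in activated WT libraries. The summed small-subunit factors had 1293, 1198 and 1304 RPM in activated KO libraries, against 1649, 1730 and 1440 RPM in activated WT libraries. Neither sum overlapped between genotypes. The nucleolar proteins, with 8150, 8744 and 7851 RPM in KO and 8101, 8809 and 7237 RPM in WT libraries, did overlap. So did the box C/D proteins, with 898, 765 and 731 RPM in KO and 983, 798 and 653 RPM in WT libraries. Of the 71 other assembly factors, 62 were lower in KO cells, with a median of -0.30 and 24 without overlap (7.38% of all genes). Of 18 further subunits and factors of RNA polymerase I, 15 were lower, with a median of -0.22 and 6 without overlap. Of 15 genes of the RNA exosome and of rRNA trimming, 14 were lower, with a median of -0.16 and 4 without overlap. Lower values were therefore limited neither to the 50 genes nor to subunit assembly.

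Imp4, which with Imp3 and Mphosph10 binds the U3 small nucleolar RNA in the processome, had 86.5, 57.7 and 63.5 RPM in activated KO libraries, against 120, 139 and 112 RPM in activated WT libraries. Its KO libraries all lay under its WT libraries, a log2 change of -0.85 ± 0.29 (adjusted p = 1). Wdr12, with the values above, differed by -0.86 ± 0.25 (adjusted p = 1). When only the activated groups entered the fit, Imp4 and Wdr12 were the 2 members called lower (0.158% of all genes), and Imp4 had an adjusted p of 0.03392 there and Wdr12 one of 0.01731. Polr1b, with -0.62 ± 0.35, and Ebna1bp2, with -0.44 ± 0.29, had the next smallest p-values and also no overlap. At the other end, Fbl had 0.21 ± 0.31, Gnl3 0.15 ± 0.33 and Npm1 0.14 ± 0.20, with overlapping libraries.

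T cell markers moved with the same contrast. All 6 had a negative fitted change in activated KO cells, and 4 did not overlap. Thy1, a surface glycoprotein of T cells and named here after its values were seen, was called lower, at -1.28 ± 0.23 (adjusted p = 0.0332). Their sum was 961, 969 and 993 RPM in activated KO libraries, against 1438, 1574 and 1425 RPM in activated WT libraries. The receptor genes overlapped, at 31618 to 41179 RPM in KO and 30239 to 40501 RPM in WT libraries. B cell markers summed to 13.2 to 33.2 RPM in activated KO and to 8.68 to 23 RPM in activated WT libraries, with Cd79b at 0 in each WT library. Myeloid markers summed to 12.3 to 34.3 RPM in KO and 22.9 to 29.9 RPM in WT libraries, with Cd14 at 0 in each KO library. Erythroid and platelet markers summed to 11.5 to 273 RPM in KO and 22.9 to 49.5 RPM in WT libraries, with Alas2 and Pf4 at 0 in each WT library. CD8 and NK markers summed to 52.3 to 62.8 RPM in KO and 28.2 to 44.9 RPM in WT libraries, with Ncr1 at 0 in each KO library. The part of these markers in the member result was not tested. Myc had a log2 change of 0.23 ± 0.42 in KO against WT cells, with overlapping libraries.

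In resting cells of the Acly cohort the members were evenly spread, with 22 higher and 28 lower in KO than in WT cells and a median of -0.04. Limma called 0 members and 0% of all genes, edgeR and DESeq2 called 0 members, and 8 members had an unadjusted p under 0.05 (5.57% of all genes). Rrs1, known in yeast for bringing the 5S particle to the large subunit, had 2.28, 4.26 and 1.26 RPM in KO libraries, against 8.12, 9.87 and 4.47 RPM in WT libraries. It was the 1 member with all KO libraries below all WT libraries (3.74% of all genes), at -1.42 ± 0.37 (adjusted p = 0.401), with most values near the floor. The next smallest p-values were those of Nop10, at -1.19 ± 0.35, Mrto4, a factor related to the stalk protein of the large subunit, at 1.06 ± 0.37, and Gar1, at 0.80 ± 0.34. Mrto4 had 16.0, 13.9 and 13.9 RPM in resting KO libraries, against 4.64, 4.23 and 14.9 RPM in resting WT libraries, which overlapped through WT 3. Without WT resting 3, Rrs1 and Nop10 were called lower (0.344% of all genes), at -1.73 and -1.69, and Mrto4 higher (0.0496% of all genes), at 1.61.

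The interaction, the activation change in KO minus that in WT cells, had a median of -0.07 over the 50 genes and -0.09 over all genes. Limma called 0 members and 0% of all genes, edgeR and DESeq2 called 0 members, and 9 members had an unadjusted p under 0.05 (4.19% of all genes). With DESeq2 the median over the 50 genes was 0.07. The 4 smallest p-values were those of Imp4, at -1.08 ± 0.41, Wdr12, at -0.90 ± 0.35, Rrp1b, a nucleolar regulator related to Rrp1, at -1.11 ± 0.44, and Rrp12, at -2.14 ± 0.88. Rrp1b had 54.1, 47.9 and 60.3 RPM in activated KO libraries, against 26.3, 28.8 and 32.9 RPM in resting KO libraries. Rrp1b had 80.5, 80.7 and 62.1 RPM in activated WT libraries, against 11.6, 16.9 and 31.3 RPM in resting WT libraries. The Rrp12 value depends on its empty resting WT group and is no bound.

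In the Pdha1 cohort 2 libraries did not follow their labelled state. The sum of the 50 genes was 4732, 4446 and 2979 RPM in activated KO libraries, against 982, 1056 and 5143 RPM in resting KO libraries. It was 8854, 5924 and 923 RPM in activated WT libraries, against 928, 762 and 1088 RPM in resting WT libraries. KO resting 3 reached the level of activated libraries, and WT activated 3 the level of resting ones. The T cell marker sum moved with them, at 587 RPM in KO resting 3 and 235 RPM in WT activated 3, and so did Myc, at 43.2 and 1.07 RPM. Erythroid and platelet markers summed to 13801 RPM in KO resting 3, against 3971 and 168 RPM in the other resting KO libraries. They summed to 14351 RPM in WT activated 1, which had the highest member sum, and to 3239 and 3218 RPM in WT activated 2 and 3. In resting WT libraries, where the member sums were low, they summed to 7387, 1620 and 16191 RPM. High sums of these markers were seen in libraries with high and in libraries with low member sums. Receptor genes summed to 66695 RPM in KO resting 3, against 105159 and 109196 RPM in the other resting KO libraries. In WT activated 3 they summed to 106047 RPM, against 26547 and 72700 RPM in the other activated WT libraries. The part of these genes in the member values was not tested.

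With all 12 libraries, limma called 0 members and 0% of all genes for activation in KO cells, and 0 members and 0% of all genes for activation in WT cells. Yet the median log2 change of the members was 1.47 in KO cells, with 46 of 50 positive, and 2.36 in WT cells, with 48 positive. An unadjusted p under 0.05 was reached by 1 member in KO and 22 members in WT cells (2.88% and 14.2% of all genes), and edgeR called 0 in both. DESeq2 called 0 members in KO cells and 28 members in WT cells (5.66% of all genes). Without KO resting 3 and WT activated 3, 30 members rose in KO cells (7% of all genes) and 41 in WT cells (14.9% of all genes), with medians of 2.47 and 3.44. Without WT activated 3 alone, 29 rose in WT cells (9.48% of all genes). The libraries left out stand apart in the members' own sum, against their labelled state. Leaving them out favours a rise, so the calls and medians without them are no independent support for it. With all 12 libraries, the median in KO cells was lower with edgeR and DESeq2, at 0.75 and 0.72, and that in WT cells higher, at 3.03 and 3.42.

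The members with the smallest p-values show the scatter with all 12 libraries. Noc2l had 26.7, 13.7 and 14.4 RPM in activated KO libraries, against 5.13, 5.06 and 14.6 RPM in resting KO libraries, a log2 change of 1.20 ± 0.55. Heatr1 had 83.8, 58.6 and 51.4 RPM in activated KO libraries, against 8.80, 1.69 and 63.3 RPM in resting KO libraries, a log2 change of 2.55 ± 1.21. Ddx18, a helicase of the large-subunit pathway, had 43.1, 43.0 and 24.8 RPM in activated KO libraries, against 2.20, 3.38 and 51.0 RPM in resting KO libraries. In all 3 genes KO resting 3 overlapped the activated libraries. Bysl, bystin, a late small-subunit factor, had 31.9, 25.2 and 5.35 RPM in activated WT libraries, against 4.74, 0 and 1.5 RPM in resting WT libraries, a log2 change of 3.29 ± 0.84. Rrs1 had 115, 65.2 and 11.8 RPM in activated WT libraries, against 4.74, 4.18 and 4.51 RPM in resting WT libraries, a log2 change of 3.19 ± 0.89. For both, WT activated 3 was the lowest activated library and still above the resting ones. Ddx10 had 43.4, 40.8 and 3.21 RPM in activated WT libraries, against 3.39, 2.09 and 2.25 RPM in resting WT libraries. Ddx56, a helicase of large-subunit assembly, had 29.7, 19.4 and 2.14 RPM in activated WT libraries, against 1.35, 0 and 0.750 RPM in resting WT libraries, so that WT activated 3 was near the resting level of both genes.

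Without those 2 libraries the median changes were highest for the box C/D proteins and lowest for RNA polymerase I. The medians in KO cells were 4.76 for box C/D, 3.26 for box H/ACA, 3.17 for nucleolar, 1.81 for small-subunit and 2.17 for large-subunit factors, and 0.36 for RNA polymerase I. In WT cells they were 4.48, 4.17, 3.87, 3.47, 2.55 and 0.56 in the same order. Nop56 had 143, 140 and 70.1 RPM in activated KO libraries, against 7.33, 1.69 and 122 RPM in resting KO libraries. Nop56 had 217, 154 and 10.7 RPM in activated WT libraries, against 8.82, 5.23 and 9.77 RPM in resting WT libraries. With all 12 libraries its KO change was 3.13 and was not called. Without the 2 libraries its change was 4.76 ± 0.49 in KO and 4.48 ± 0.49 in WT cells. Leaving them out favours a rise, so these values and the medians by role are no independent support for it. Without the 2 libraries Wdr12, Noc3l, Nip7 and Polr1b were not called. Their changes were -0.41, 0.54, 0.62 and -0.20 in WT cells, and 0.16, -0.51, -0.51 and -0.37 in KO cells.

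The genotypes of the Pdha1 cohort could not be separated with all libraries. In activated cells the median was 0.06, with 28 of 50 positive, and limma called 0 members and 0% of all genes. The direction depended on the tool: edgeR gave a median of -0.30 with 39 negative, and DESeq2 one of -0.62 with 44 negative. Both called 0 members, and 0 members had an unadjusted p under 0.05 by any of the 3 tools. It also depended on single libraries, with a median of 0.70 without WT activated 1 and of -0.77 without WT activated 3. Without the 2 libraries the median was -0.77, with 46 of 50 negative, against 0.35 over all genes, and 10 members had an unadjusted p under 0.05, as did 17.6% of all genes. Limma then called 0 members and 0.00689% of all genes. Leaving out WT activated 3, which is low in the members' own sum, itself favours lower values in KO cells. All 3 activated KO libraries lay below WT activated 1 and 2 for 28 members (14% of all genes). Npm1 had 1194, 1254 and 720 RPM in activated KO libraries, against 3472, 1641 and 106 RPM in activated WT libraries. Ncl had 1032, 1002 and 612 RPM in activated KO libraries, against 1214, 1318 and 133 RPM in activated WT libraries. Both were lower in KO than in WT activated 1 and 2 and higher than in WT activated 3. Receptor genes summed to 75858 to 89902 RPM in activated KO libraries, above WT activated 1 and 2, and T cell markers to 406 to 534 RPM, below the 753 and 677 RPM there. The part of both in this difference was not tested.

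Wdr12 had 226, 158 and 200 RPM in activated Pdha1 KO libraries, against 119, 140 and 119 RPM in activated WT libraries. It was the 1 member whose KO libraries all lay above all WT libraries (3.99% of all genes), a log2 change of 0.61 ± 0.39 with an adjusted p of 1. All KO libraries lay below all WT libraries for 1 other large-subunit factor, a share not counted over all genes. Without the 2 libraries Wdr12 was at 0.58, and Polr1b, Noc2l and Polr1a were positive as well, at 0.45, 0.29 and 0.02. With all libraries the smallest p-values after Wdr12 were those of Utp14a, a processome helper, at -0.50 ± 0.37, Nop16, at -0.49 ± 0.41, and Noc2l, the partner of Noc3l, at 0.65 ± 0.55. Utp14a had 40.1, 47.3 and 27.2 RPM in activated KO libraries, against 70.9, 51.5 and 40.9 RPM in activated WT libraries, which overlapped.

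In resting cells of the Pdha1 cohort the median was 0.68, with 46 of 50 positive, and limma called 0 members and 0% of all genes. The median was 2.04 with edgeR and 2.13 with DESeq2, which both called 0 members, and it was 0.03 without KO resting 3 alone and 1.78 without KO resting 2. An unadjusted p under 0.05 was reached by 1 member with limma (2.10% of all genes), by 4 with edgeR (2.69%) and by 20 with DESeq2 (3.10%). Without the 2 libraries the median was 0.03, with 26 positive, and limma called 0 members and 0.00344% of all genes, with 2 members under an unadjusted p of 0.05 (3.20% of all genes). Bysl had the smallest p with all libraries. It had 3.66, 6.75 and 17.2 RPM in resting KO libraries, against 4.74, 0 and 1.5 RPM in resting WT libraries, a log2 change of 2.22 ± 0.84 with KO resting 3 highest. Ddx10 followed at 1.73 ± 0.84, Rrp12 at 1.58 ± 0.96 and Rrp9, a U3-binding protein, at 1.52 ± 0.95. The interaction had a median of -0.62, with 0 members called and 0% of all genes, and 0 members under an unadjusted p of 0.05. EdgeR gave a median of -2.15 and DESeq2 one of -2.56, with 0 members called by either and 1 and 15 members under an unadjusted p of 0.05 (2.87% and 4.09% of all genes). Without KO resting 3 the limma median was 0.09, and without WT activated 3 it was -1.49. Its smallest p-values were those of Bysl, at -2.32 ± 1.19, Nip7, at -0.90 ± 0.53, Utp14a, at -0.86 ± 0.53, and Ddx10, at -1.83 ± 1.19. Without the 2 libraries its median was -0.72, and 6 members had an unadjusted p under 0.05 (8.22% of all genes), with 0 members and 0.00689% of all genes called.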

How the data were processed

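The authors deposited 1 table of 46981 genes by 24 libraries in RPM, scaled to 1000000 in each library. GRCm38 and mm10 are the builds in the submitters' processing notes, and the sources used here name no aligner or counter. Per the labels' protocols, libraries were stranded, from total RNA depleted of ribosomal and globin transcripts, with single reads of 75 bp. The RPM steps match whole counts (within 0.01, 100% of values) once the authors' apparent adjustment for repeated use of 4096 possible 6-base identifiers is undone. The adjusted counts, rounded, served edgeR and DESeq2.

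Symbols came from GENCODE M21 on GRCm38. Each cohort was fitted by itself with limma 3.58.1 in R 4.3.3 (with trend and robust options) on log2(RPM + 0.5), its 12 libraries in 4 groups sharing 1 estimate of the spread. A gene entered with 1 RPM or more in 3 or more libraries, and the Benjamini-Hochberg adjustment ran over all such genes. The pseudocount understates changes of low genes. Values after ± are standard errors unless SD is named. RPM is not adjusted for gene length, so levels are not compared between genes. The alternatives were edgeR 4.0.16 (TMM), DESeq2 1.42.0, other pseudocounts, filters and scalings, fits of only the groups compared, the replicate number as a term, and leaving out libraries.

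Values per library are given for the members of each role with the highest mean RPM, those with the smallest p in each contrast, and others named as chosen later. The members, gene lists and motifs were chosen with earlier results of these data known. The replicate numbers were not taken as pairs.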

Additional observations from a re-analysis of the deposited data

Results flagged for a closer look

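Of 400 pairs of effects of the 50 genes looked at, 1 went opposite ways in every library. Only the 50 genes were searched, so the share over all genes is not known. Among all genes, KO libraries all lay below WT libraries for 7.38% in activated Acly cells. They all lay above WT libraries for 3.99% in activated Pdha1 cells. For KO against WT in activated cells, Wdr12 had a log2 change of -0.86 in the Acly cohort and of 0.61 in the Pdha1 cohort. All 3 activated Acly KO libraries, with 87.3, 80.2 and 106 RPM, lay below all 3 activated WT libraries of that cohort, with 201, 163 and 136 RPM. All 3 activated Pdha1 KO libraries, with 226, 158 and 200 RPM, lay above all 3 activated WT libraries of that cohort, with 119, 140 and 119 RPM. The difference between the cohorts was not tested. Reads of Carf, which overlaps Wdr12 on the opposite strand, were 18.9, 22.1 and 61.3 RPM in activated Acly KO libraries, against 31.0, 19.0 and 32.7 RPM in activated WT libraries of that cohort.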

How the results depend on the processing

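In activated against resting Acly KO cells, Wdr12 was the 1 member called lower, and 0 were called lower with no filter, with the TMM-style scaling, with limma without trend and robust estimation, with edgeR and with DESeq2. Relative to protein-coding genes the KO changes of Nip7 and Polr1b were -0.21 and -0.25, and the WT changes of Noc3l and Wdr12 were -0.017 and -0.38. The KO change of Noc3l was 0.32 with the TMM-style scaling, 0.36 with edgeR and 0.35 with DESeq2. The cause of these shifts was not tested. The scalings moved the median of all genes for activation in the Acly cohort by between -0.35 and 0.30, and relative to that median the members' median stayed between 4.20 and 4.84. In activated KO against WT cells, 2 members were called lower when only those groups were fitted. In the Pdha1 cohort, 30 members were called higher with activation in KO and 41 in WT cells without the 2 libraries that stand apart. Leaving out these 2 libraries favours a rise. With DESeq2 28 members were called higher in WT cells.

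Leaving out each library in turn gave 0 to 1 members called lower with activation in Acly KO cells, a WT change of Wdr12 of -0.10 to 0.28, 0 to 1 called higher and 0 to 2 called lower between resting Acly genotypes, and 0 to 29 called higher with activation in Pdha1 WT cells. With the replicate number as a block, 47 members were called higher in activated Acly WT cells, and 45 higher and 1 lower in activated Acly KO cells. No other count of called members changed under the block, while those under an unadjusted p of 0.05 became 13 for activation in Pdha1 WT cells, 0 in Pdha1 KO cells, 10 for the Acly interaction and 9 between resting Acly genotypes. Correlations of same-numbered libraries' deviations were 0.0086 to 0.13 in the Acly cohort (12 of 12 positive, 1 over 0.1) and -0.28 to 0.27 in the Pdha1 cohort (7 of 12 positive). Libraries correlated best with their own number in 19 of 24 and 10 of 24 comparisons, a hint from the data and not from the design, so the numbers were not taken as pairs. In each resting Acly library 8 to 14 members were at or under the limit of 3 counts, among them Nhp2, Rrp12, Bysl, Tsr1, Ltv1, Ddx56, Gar1 and Nop2 in at least 1 library, so depth limits their folds.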
